A study of Pinus pinaster with 30 samples.

Results

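Transcripts for the cytosolic ribosome were lower in mature than in early maritime pine embryos at most spots. Among tested ribosomal proteins and initiation factors, the 60S protein L28-1, the organelle-type S1 homolog, eIF3G1 and IF2/IF5 were higher. The 60S protein L37 and an eIF4E spot, which kept too few arrays to be tested, were higher when no array was left out. The other organelle-type protein, L12, was not tested either and had a lower value in mature embryos that did not pass. These statements concern 57 array spots for ribosomal proteins, translation factors and aminoacyl-tRNA synthetases, out of 26496 spots on the PtGen2 cDNA array. A spot was a member when the study listed it among spots that changed over time, that changed by at least 2-fold between consecutive harvests, or whose profile was compared with *A. thaliana*, and when its *A. thaliana* or NCBI description held 1 of 5 phrases (ribosomal protein, translation initiation factor, translation elongation factor, elongation factor, tRNA synthetase). The parts of these lists used here held 15, 14 and 36 of the members, with some in more than 1 list. The members were therefore chosen by the same day means that are reported here, and the values below describe the members and are not tests of them.

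Zygotic embryos of *Pinus pinaster* from open-pollinated trees were harvested in 1 season on Day0 (early embryos), Day5 (pre-cotyledonary), Day11 (early cotyledonary), Day15 (cotyledonary) and Day25 (mature). Each day had 3 biological samples of 60 pooled embryos, and each sample was hybridized to 2 technical replicate arrays, 30 arrays in all. The embryos carried no transgene or treatment. Amplified embryo RNA was labelled with Cy3 and set against a common reference pool of RNA from all days, labelled with Cy5, so the values are log2(embryo/pool). No dyes were swapped, and the pool was the same on every array, so it cancels in a difference between days. The spotted cDNA came from roots and needles of another pine, *P. taeda*, and near-identical gene copies cannot be told apart on such spots. In RNA of whole embryos, fewer cells that carry a transcript and less of that transcript per cell cannot be told apart.

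A ribosome joins amino acids in the order that an mRNA sets. In plants it exists in a cytosolic form, with a 60S and a 40S subunit, and in bacterial-type forms in plastids and mitochondria. Initiation factors bring the mRNA and the first tRNA to the small subunit, elongation factors feed charged tRNAs and move the chain on, and tRNA synthetases charge each tRNA with its amino acid. Genes of cytosolic ribosomal proteins are known for high transcript levels in dividing and growing tissue, and several were named EMBRYO DEFECTIVE in *A. thaliana* because embryos that lack them stop developing.

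The members comprised 19 spots for 60S proteins, 3 for acidic proteins of the 60S stalk, 11 for 40S proteins, 2 for organelle ribosomal proteins, 7 for initiation factors, 6 for elongation factors and 6 for tRNA synthetases. The other 3 matched by wording alone. Of all 57, 32 were measured in 2 or 3 samples of each day and were tested with the rest of the array. The 25 others lost too many arrays to the deposited quality marks. They were not dim: their median log2 signal over background in Cy3 was 7.77, against 6.99 for the tested members and 5.09 for all 14513 tested spots. Members that were not tested are described from ratios computed without the quality filter, which exist for all 57.

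From Day0 to Day25, 21 tested members were lower on Day25 (limma, adjusted p under 0.05), 5 were higher and 6 did not pass. Over all tested spots, 23.6% were lower and 23.6% were higher, and the median difference was -0.02 on the log2 scale, against -0.67 for the members. No reading is drawn from the members' counts, since all 3 lists were made from these samples over the same days. In the parts of the lists used here, 31 of the 57 members stood in the list of profiles alone. Among the 16 tested spots of the cytosolic ribosome, 13 were lower on Day25, 1 was higher and 2 did not pass, with a median difference of -0.97, that is 1.96-fold lower. Without the quality filter, 30 of all 33 cytosolic ribosomal spots were lower, 2 were higher and 1 did not pass, with a median of -1.19. In that setting 25.4% of all spots were lower and 25.2% higher. Spots of 1 locus were counted separately in these counts and medians, and counts over genes were not made.

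The decrease differed between steps. The harvests were unevenly spaced, with the longest gap before Day25, so the sizes of the steps are not rates. Between Day5 and Day0 the cytosolic ribosome had a median difference of -0.03, with 8 spots above 0 and 8 below. The median difference was -0.25 between Day11 and Day5, -0.14 between Day15 and Day11 and -0.45 between Day25 and Day15. In the last of these steps 15 of 16 spots were below 0, and 5 passed as lower, where 51.6% of all tested spots were below 0 and 3.5% passed as lower. These calls depended on single samples, on the number of spots still tested and on scaling. With Day25 replicate 2 left out 1 of 12 cytosolic spots passed and 11 were below 0. With Day15 replicate 1 left out 1 of 11 passed and 10 were below 0, and with Day15 replicate 3 left out 2 of 11 passed. Without Day25 replicate 1 or Day15 replicate 2, 3 of 12 passed. The count was 3 of 14 without Day25 replicate 3 and 3 of 13 without Day11 replicate 1. With 1 loess per array 2 passed, and with scaled log2 ratios 1 did. For these runs the share of all tested spots passing in this step was not computed. Whether the loss was particular to cytosolic spots was not tested. Between Day15 and Day11 no spot of the whole array passed (limma, 857 at an unadjusted p under 0.05). Taking all 33 spots without the quality filter, the highest day mean fell on Day0 in 17 and on Day5 in 14, and the lowest on Day25 in 29.

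The sample medians show the same course. Over the 16 tested cytosolic spots the median log2 ratios were 0.23, 0.39 and 0.34 on Day0, 0.11, 0.23 and 0.44 on Day5, -0.18, -0.05 and 0.15 on Day11, -0.09, -0.11 and -0.14 on Day15, and -0.77, -1.02 and -0.38 on Day25. All 3 Day25 samples lay below every other sample, and Day0 and Day5 samples overlapped. Each median covers the spots with a value in that sample, 13 to 16 of the 16, so the sets of spots differ between samples. Over all tested spots every sample median lay between 0.00 and 0.03, where the normalization holds them.

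**Figure D1:**
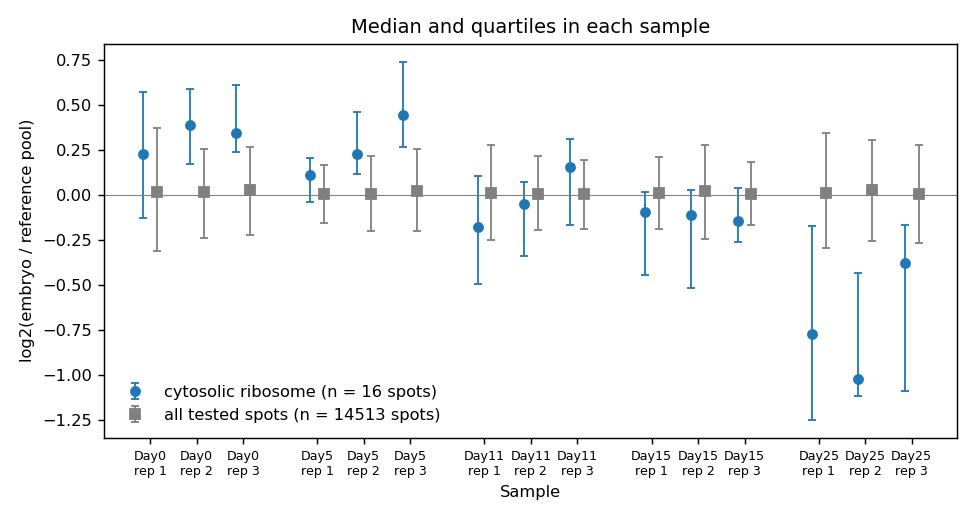
Median log2 ratio of embryo over reference pool in each of 15 samples (y axis), with bars to the lower and upper quartile over spots. Circles show the 16 tested cytosolic ribosomal spots and squares all 14513 tested spots. A sample median covers the spots with a value in that sample, 13 to 16 of the cytosolic ones. The cytosolic medians of the Day25 samples (-0.77, -1.02 and -0.38) lie under all others, and the medians of all spots stay between 0.00 and 0.03.

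Among 60S proteins, 10 of 19 spots were tested. On Day25 against Day0, 8 were lower, 1 was higher and 1 did not pass, with a median of -0.97. The shares over all tested spots were 23.6% lower and 23.6% higher. The widest range of day means was that of L14 (AT4G27090, spot 8.4.20.11), a protein of the large subunit. Its log2 ratios were 0.24 and 0.98 on Day0, 0.38 and 0.86 on Day5, -0.24, 0.11 and -0.10 on Day11, -0.33 and -0.51 on Day15 and -1.63, -1.29 and -1.27 on Day25. All Day25 samples lay under every sample of the other days, and Day25 minus Day0 was -2.01 ± 0.23 (standard error of the fit), 4.03-fold lower.

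The L2 family gene AT2G18020 (EMB2296) had 3 spots. L2 sits at the catalytic centre of the large subunit. Spot 11.4.21.4 read 0.03, 0.42 and 0.42 on Day0, 0.10, 0.53 and 0.29 on Day5, -0.15 and 0.22 on Day11, -0.48 and 0.01 on Day15 and -0.78, -1.03 and -1.09 on Day25. Its Day25 samples were under all others, and Day25 minus Day0 was -1.26 ± 0.18. Spot 7.2.3.3 read -0.30, 0.09 and 0.10 on Day0, 0.19, 0.14 and 0.36 on Day5, -0.21, 0.03 and 0.17 on Day11, 0.01, -0.10 and -0.06 on Day15 and -0.81, -0.44 and -0.17 on Day25. Here the lowest Day0 sample lay between Day25 samples, and the difference was -0.44 ± 0.16. Spot 4.2.3.12 had the narrowest range of day means of all tested 60S spots and read 0.21, 0.13 and 0.34 on Day0, 0.05 and 0.16 on Day5, -0.01 and 0.32 on Day11, 0.09, 0.31 and -0.02 on Day15 and -0.06 and -0.17 on Day25. Its Day25 and Day0 samples did not overlap, yet the difference of -0.34 ± 0.15 did not pass. A further spot described as 60S L2 without a locus (6.3.21.10) had a difference of -1.33 ± 0.19.

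L23 (AT3G04400, EMB2171) had a pair of spots. The tested one (3.1.4.20) read -0.54, 0.69 and 0.33 on Day0, -0.02, 0.19 and 0.52 on Day5, -0.90, -0.45 and -0.19 on Day11, -0.90 and -0.37 on Day15 and -2.03, -1.02 and -1.09 on Day25. Its Day0 replicate 1 stood apart from the other Day0 samples, within the range of Day11, and Day25 minus Day0 was -1.54 ± 0.32, 2.90-fold lower. The other L23 spot (1.3.4.24) was not tested and read -0.76, 0.29 and 0.04 on Day0, -0.01, 0.36 and 0.44 on Day5, -0.59, -0.15 and 0.11 on Day11, -0.58 and 0.07 on Day15 and -0.57 on Day25. Day0 replicate 1 was the lowest of its kept values, and without the quality filter Day25 minus Day0 was -0.76 ± 0.28.

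L3 (AT1G43170, EMB2207), a core protein of the large subunit, read 0.67 and 0.52 on Day0, 0.11, 0.60 and 0.61 on Day5, 0.13, -0.21 and 0.34 on Day11, 0.02, 0.03 and -0.16 on Day15 and -0.36, -0.46 and -0.38 on Day25 at spot 7.4.15.18. All Day25 samples were under all Day0 samples, with a difference of -0.99 ± 0.18. Its second spot (12.2.14.13) kept few arrays and read 0.60 on Day0, 0.51 on Day5, 0.32 on Day11, -0.03 on Day15 and 0.12 and -0.08 on Day25. Without the filter the difference there was -0.78 ± 0.18.

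For L30/L7 (AT2G01250), spot 4.2.18.7 read 0.55 and 0.23 on Day0, 0.18 and 0.06 on Day5, 0.33 and -0.02 on Day11, -0.01, -0.11 and 0.09 on Day15 and -0.39 and -0.07 on Day25. Day25 lay below Day0 without overlap, by -0.61 ± 0.19. The companion spot 4.2.15.2 read 0.49, 0.14 and 0.11 on Day0, -0.05 and 0.11 on Day5, 0.48 on Day11, -0.30, -0.14 and -0.02 on Day15 and -0.11, -0.37 and -0.38 on Day25. It was lower on Day25 as well, by -0.93 ± 0.14 without the filter.

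L5 B (AT5G39740), from the L5 family that carries 5S rRNA into the ribosome, had 2 spots, neither tested. Spot 6.1.22.17 read 0.77 and 0.58 on Day0, 0.51 on Day5, 0.48 on Day11, 0.05, 0.05 and 0.01 on Day15 and -0.53 on Day25. Spot 11.1.21.9 read 0.64 and 0.52 on Day0, 0.46 and 0.39 on Day5, 0.19 on Day11, 0.19 and -0.12 on Day15 and -0.46 on Day25. In both the lowest kept value was the single one of Day25, and the differences without the filter were -1.56 ± 0.13 and -1.21 ± 0.16. Among the remaining 60S spots, L11 (AT5G60670) was tested and lower, by -0.94 ± 0.19, and L26-1, L9 and L32 had -1.51 ± 0.18, -1.31 ± 0.21 and -0.70 ± 0.17 without the filter.

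L28-1 and L37 ran against all other 60S spots. L28-1 (spot 7.2.3.20, no *A. thaliana* locus given) read -0.94, -0.75 and -0.88 on Day0, 0.38, -0.02 and -0.22 on Day5, 0.96, 0.75 and 0.41 on Day11, 0.68 and 0.97 on Day15 and 0.77, 0.30 and 0.50 on Day25. Every Day0 sample was below every later sample. Day25 minus Day0 was 1.38 ± 0.18, 2.61-fold higher, and Day5 minus Day0 was 0.91 ± 0.18, higher like 2.94% of all tested spots. L37 (6.2.9.21) was not tested and read -0.93 and -0.68 on Day0, no kept value on Day5, 0.36 on Day11, 0.64, 0.80 and 0.82 on Day15 and 0.83 and 1.21 on Day25. Its Day15 and Day25 samples were all above its Day0 samples, and Day25 minus Day0 was 1.88 ± 0.20 without the filter.

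**Figure D2:**
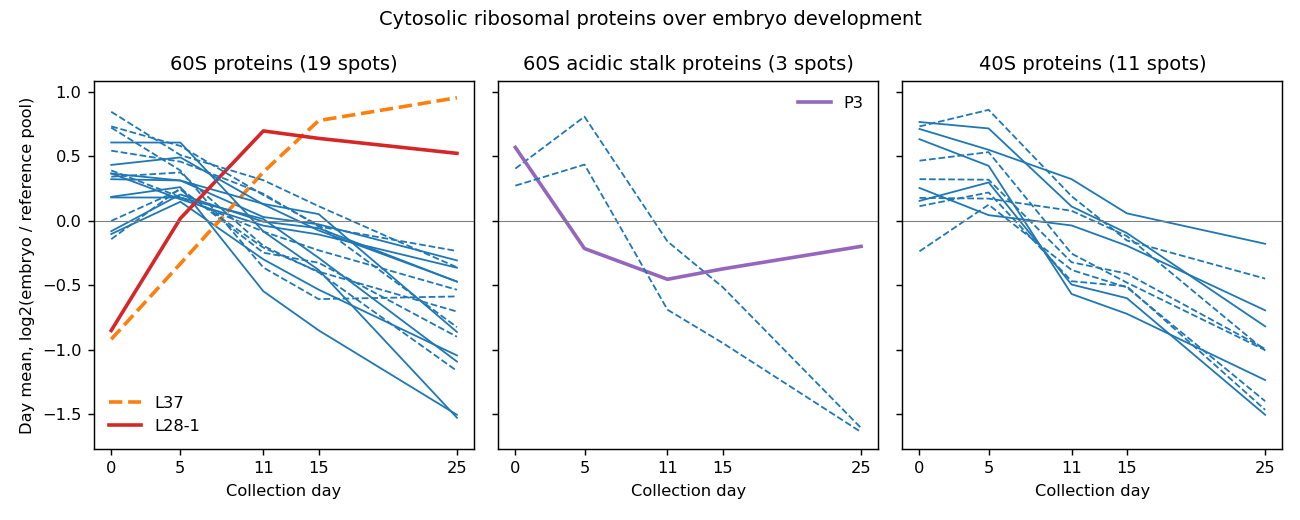
Day means of the log2 ratio of embryo over reference pool, computed without the quality filter (y axis), against collection day for the 33 cytosolic ribosomal spots, with 1 line per spot, solid where tested and dashed where not. In the 60S panel L28-1 and L37 climb while the other 17 lines end below their Day0 value, and in the stalk panel P3 drops by Day5 and the other spots drop later.

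The acidic stalk proteins recruit elongation factors to the large subunit. P3, a plant-specific member (AT4G25890, spot 8.3.22.9), read 0.53, 0.39 and 0.61 on Day0, -0.38, -0.34 and 0.11 on Day5, -0.50, -0.39 and -0.44 on Day11, -0.49, -0.42 and -0.41 on Day15 and -0.25, 0.02 and -0.24 on Day25. Day0 was above all later samples, and the change lay between the first harvests. Day5 minus Day0 was -0.71 ± 0.14, lower like 4.76% of all tested spots, and Day25 minus Day0 was -0.66 ± 0.14. P1 (AT5G24510, spot 4.1.17.5) was not tested and read -0.12, 0.60 and 0.51 on Day0, 0.31, 0.67 and 1.25 on Day5, 0.05 on Day11, -0.77, -0.75 and 0.03 on Day15 and -2.00, -1.79 and -0.96 on Day25. Day0 and Day5 samples overlapped and all Day25 samples were below the rest, whereas P3 had its lowest day mean on Day11. An acidic protein with no number in its description (8.4.17.8) read -0.49, 0.63 and 0.32 on Day0, 0.03 and 0.21 on Day5, -0.88, -0.60 and -0.33 on Day11, -0.98, -1.24 and -0.51 on Day15 and -2.02 on Day25. Without the filter, Day25 minus Day0 was -2.01 ± 0.29 for P1 and -1.91 ± 0.30 for the unnumbered protein, among the largest differences of the cytosolic ribosome.

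Of 11 spots for 40S proteins, 5 were tested. On Day25 against Day0, 4 were lower and 1 did not pass, with a median difference of -1.64, where 23.6% of all tested spots were lower. Without the filter all 11 spots for 40S proteins were lower, by -0.89 to -1.87, where 25.4% of all spots were lower. The tested spots had their largest median step between Day11 and Day5, at -0.68, against -0.47 between Day25 and Day15. The former step ranged from -1.07 to -0.01 over spots, with 1 of the 5 passing, and 2 passed in the latter. Of all tested spots, 0.689% passed as lower in the former and 3.5% in the latter. More than 1 of the 5 spots came from the S5 domain 2-like gene. A median over genes was not computed, so the order of these steps holds for spots only.

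The S5 domain 2-like gene AT2G09990 had 3 spots, and the first had the widest range of day means among tested 40S spots. Spot 2.3.16.5 read 0.14 and 0.72 on Day0, 0.22, 0.35 and 0.78 on Day5, -1.03, -0.53 and -0.27 on Day11, -1.24 and -0.39 on Day15 and -1.41 and -1.16 on Day25. Spot 4.2.4.24 read -0.07, 0.35 and 0.30 on Day0, -0.08, 0.25 and 0.56 on Day5, -1.08, -0.34 and -0.22 on Day11, -0.60, -0.90 and -0.25 on Day15 and -1.68, -1.21 and -1.52 on Day25. Spot 11.4.13.17, which shares a pine unigene with 4.2.4.24, was not tested and read -0.13, 0.37 and 0.12 on Day0, -0.14 and 0.24 on Day5, -0.59, -0.52 and -0.14 on Day11, -0.31 on Day15 and -1.53 and -1.41 on Day25. In all 3 the Day0 and Day5 samples were above all Day25 samples. Day25 minus Day0 was -1.72 ± 0.32 and -1.66 ± 0.23 for the tested spots, and -1.58 ± 0.21 without the filter for spot 11.4.13.17.

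S7e (AT1G48830) read 0.88, 0.73 and 0.81 on Day0, 0.52, 0.72 and 0.97 on Day5, -0.07, -0.05 and 0.29 on Day11, 0.04, -0.25 and -0.13 on Day15 and -0.77, -1.07 and -0.65 on Day25 at spot 12.4.21.18. The Day0 and Day5 samples were above all later ones and the Day25 samples below all others. It was the only cytosolic ribosomal spot called between Day11 and Day5 (-0.68 ± 0.15, where 0.689% of all tested spots were lower). With the replicate number as a block, L23 (3.1.4.20) and the S5 domain 2-like spots 2.3.16.5 and 4.2.4.24 also passed as lower in that step (limma, adjusted p = 0.0435, 0.0131 and 0.0368). For S7e, Day25 minus Day0 was -1.64 ± 0.15, 3.11-fold lower. Its second spot (12.2.8.20) read 0.12 on Day0, 0.28 on Day5, -0.19 and -0.15 on Day11, -0.06, -0.54 and -0.30 on Day15 and -0.88 on Day25, with Day25 minus Day0 of -1.32 ± 0.15 without the filter.

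S3 (AT5G35530), which lies where mRNA enters the small subunit, had 2 spots. Spot 6.1.18.2 read 0.69, 0.64 and 0.64 on Day0, 0.17, 0.68 and 0.81 on Day5, 0.17, 0.41 and 0.57 on Day11, -0.16, 0.08 and 0.42 on Day15 and 0.28, -0.43 and -0.32 on Day25. The Day25 samples were all below the Day0 samples, and the difference was -0.81 ± 0.21. Spot 5.1.3.18 read 0.33 and 0.75 on Day0, 0.38 on Day5, 0.27, 0.19 and 0.24 on Day11, -0.12, -0.15 and -0.14 on Day15 and -0.60, -0.43 and -0.75 on Day25. Its Day25 samples were below all others, and the difference without the filter was -1.18 ± 0.16.

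SA (AT1G72370, spot 2.1.14.15), needed in yeast for mature 40S subunits, had the narrowest range among tested 40S spots. It read 0.66, -0.23 and 0.24 on Day0, -0.24, 0.20 and 0.01 on Day5, -0.19 and 0.14 on Day11, -0.03, 0.10 and -0.26 on Day15 and -0.09 and -0.75 on Day25. Day0 and Day25 samples overlapped, and the difference of -0.64 ± 0.25 did not pass (limma, adjusted p = 0.0525), but did with the replicate number as a block (adjusted p = 0.0491). The related SA B (AT3G04770, spot 4.1.19.12) was not tested and had -1.19 ± 0.19 without the filter. S12/S23 (AT5G02960) and S13A (AT4G00100, POINTED FIRST LEAF 2) were not tested either and had -1.47 ± 0.20 and -1.16 ± 0.24.

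**Figure D3:**
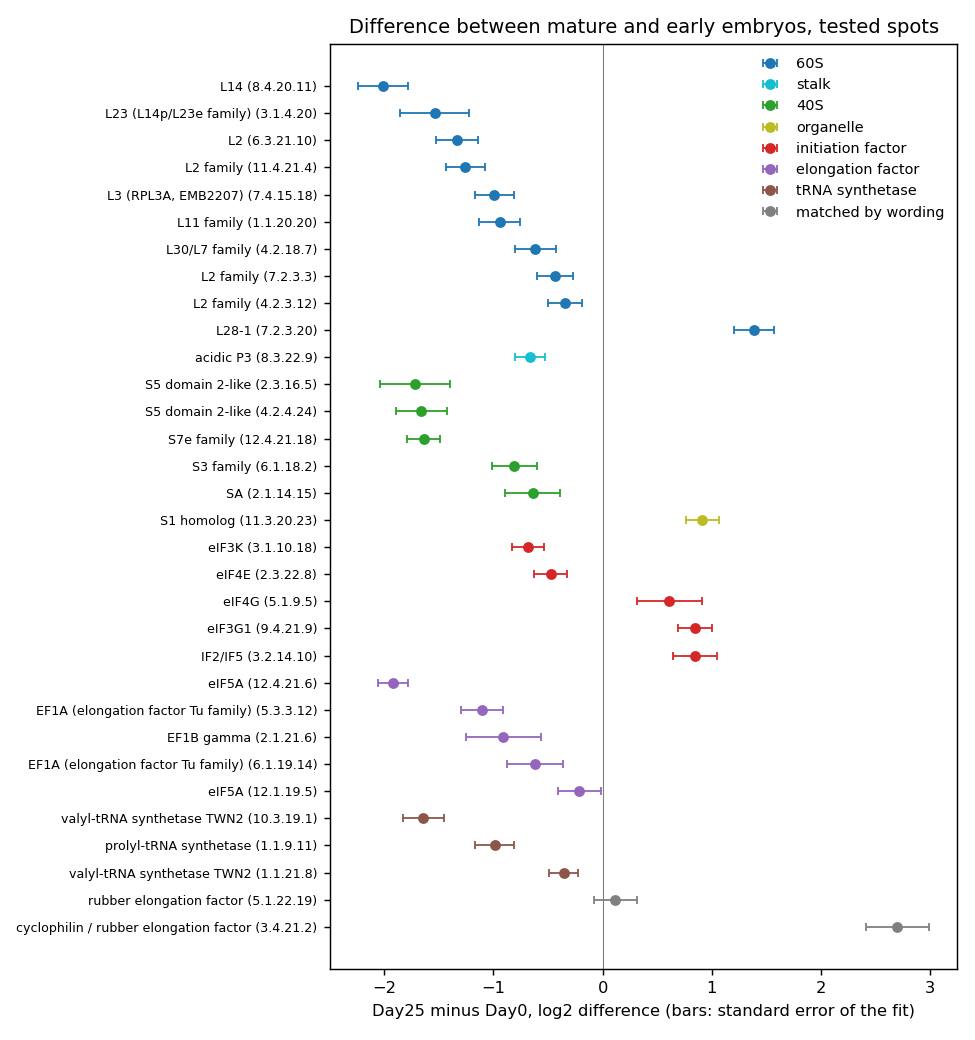
Day25 minus Day0 in log2 units (x axis) for the 32 tested members, ordered by role and then by difference, with bars of 1 standard error of the fit. L28-1 (1.38), the S1 homolog (0.91), eIF3G1 (0.85), IF2/IF5 (0.85) and eIF4G (0.61, not passed) lie right of 0. So do the spots matched by wording (2.70, and 0.12, which did not pass). All other tested members lie left of 0.

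The organelle ribosome was represented by 2 spots, which differed. The homolog of the 30S protein S1 (AT3G23700, spot 11.3.20.23), a protein that in bacteria holds mRNA on the small subunit, read -0.32, -0.73 and -0.42 on Day0, -0.09 and -0.31 on Day5, 0.06, 0.50 and 0.22 on Day11, 0.39 and 0.13 on Day15 and 0.41, 0.51 and 0.34 on Day25. All Day0 and Day5 samples were below all later samples. Day25 minus Day0 was 0.91 ± 0.15, 1.88-fold higher, with the largest step between Day11 and Day5 (0.46 ± 0.17, not passed). L12 of bacterial type (AT4G37660, spot 6.3.19.10), the stalk protein of such ribosomes, kept 11 arrays and was not tested. It read 0.27 and -0.03 on Day0, 0.46 and 0.65 on Day5, 0.61 on Day11, 0.00 on Day15 and -1.36 and -0.50 on Day25. Its kept values were highest on Day5 and Day11 and lowest on Day25. Without the filter the day means were -0.12 on Day0, 0.45 on Day5, 0.44 on Day11, 0.10 on Day15, -0.71 on Day25, and Day25 minus Day0 was -0.59 ± 0.25, not passed.

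Spots for initiation factors differed in direction. Of 7 spots, 5 were tested. On Day25 against Day0, 2 were higher, 2 were lower and 1 did not pass. The shares over all tested spots were 23.6% higher and 23.6% lower, and no reading is drawn from these counts.

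Of the eIF3 complex, which binds the 40S subunit, eIF3G1 (AT3G11400, spot 9.4.21.9) read -0.71, -0.40 and -0.52 on Day0, -0.24, -0.21 and -0.14 on Day5, -0.03 and 0.07 on Day11, 0.17, 0.32 and 0.11 on Day15 and 0.55 and 0.06 on Day25. Its day means climbed at every step, all Day25 samples exceeded all Day0 samples, and the difference was 0.85 ± 0.16, 1.80-fold higher. eIF3K (AT4G33250, spot 3.1.10.18) read 0.27, 0.23 and 0.15 on Day0, -0.01, 0.36 and 0.35 on Day5, 0.08, 0.04 and 0.28 on Day11, -0.15, 0.18 and -0.26 on Day15 and -0.34, -0.67 and -0.39 on Day25. Its Day25 samples lay below all others, and the difference was -0.68 ± 0.15. Another eIF3 spot, with no subunit named (8.1.10.6), kept 10 arrays and read 1.59 on Day0, -1.07 and -0.72 on Day5, -1.56 and -1.45 on Day11, -1.64 and -0.86 on Day15 and no kept value on Day25. Its lone kept Day0 value stood far above the rest. Without the filter the day means were 0.99 on Day0, -1.19 on Day5, -1.46 on Day11, -1.46 on Day15, -2.04 on Day25, with Day25 samples between -2.14 and -1.91 and Day0 samples between 0.42 and 1.63. Day25 minus Day0 was -3.03 ± 0.22, the largest difference of any member.

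IF2/IF5 (AT1G36730, spot 3.2.14.10), of the family that controls GTP use during start site selection, read -0.30, -0.84 and -0.18 on Day0, -0.35 and -0.49 on Day5, -0.18, -0.31 and -0.33 on Day11, 0.05, -0.25 and -0.26 on Day15 and -0.06, 0.67 and 0.62 on Day25. It had the widest range of day means among tested initiation factors. The Day25 samples were above all Day0 samples, 2 of them by a wide margin, and the difference was 0.85 ± 0.20, 1.80-fold higher. eIF4G (AT3G60240, spot 5.1.9.5), the scaffold of the cap-binding complex, had the narrowest range and read 1.09, -0.48 and 0.00 on Day0, 0.47, 0.39 and -0.01 on Day5, 0.72, 0.54 and 0.08 on Day11, 0.17 and 0.15 on Day15 and 1.02, 0.74 and 0.68 on Day25. Day0 replicate 1 was above all Day25 samples and the other Day0 samples were below them. The difference of 0.61 ± 0.30 did not pass.

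The cap-binding protein eIF4E had 2 spots with opposite courses. Spot 2.3.22.8, with no locus, read 0.81 and 0.68 on Day0, 0.20, 0.24 and 0.34 on Day5, 0.28, 0.29 and 0.15 on Day11, 0.12, -0.14 and 0.04 on Day15 and 0.12 and 0.42 on Day25. It was highest on Day0 without overlap. Day5 minus Day0 was -0.49 ± 0.14 and Day25 minus Day0 -0.48 ± 0.15. The first of these passed at an adjusted p of 0.0481 (limma) and did not with the replicate number as a block (adjusted p = 0.0629). Spot 10.2.10.11 (AT4G18040) was not tested and read -0.10, -0.21 and -0.10 on Day0, 0.17, 0.03 and 0.06 on Day5, 0.32 on Day11, 0.54 and 0.46 on Day15 and 0.29 and 0.40 on Day25. All its Day25 samples were above all its Day0 samples, with 0.35 ± 0.13 without the filter.

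**Figure D4:**
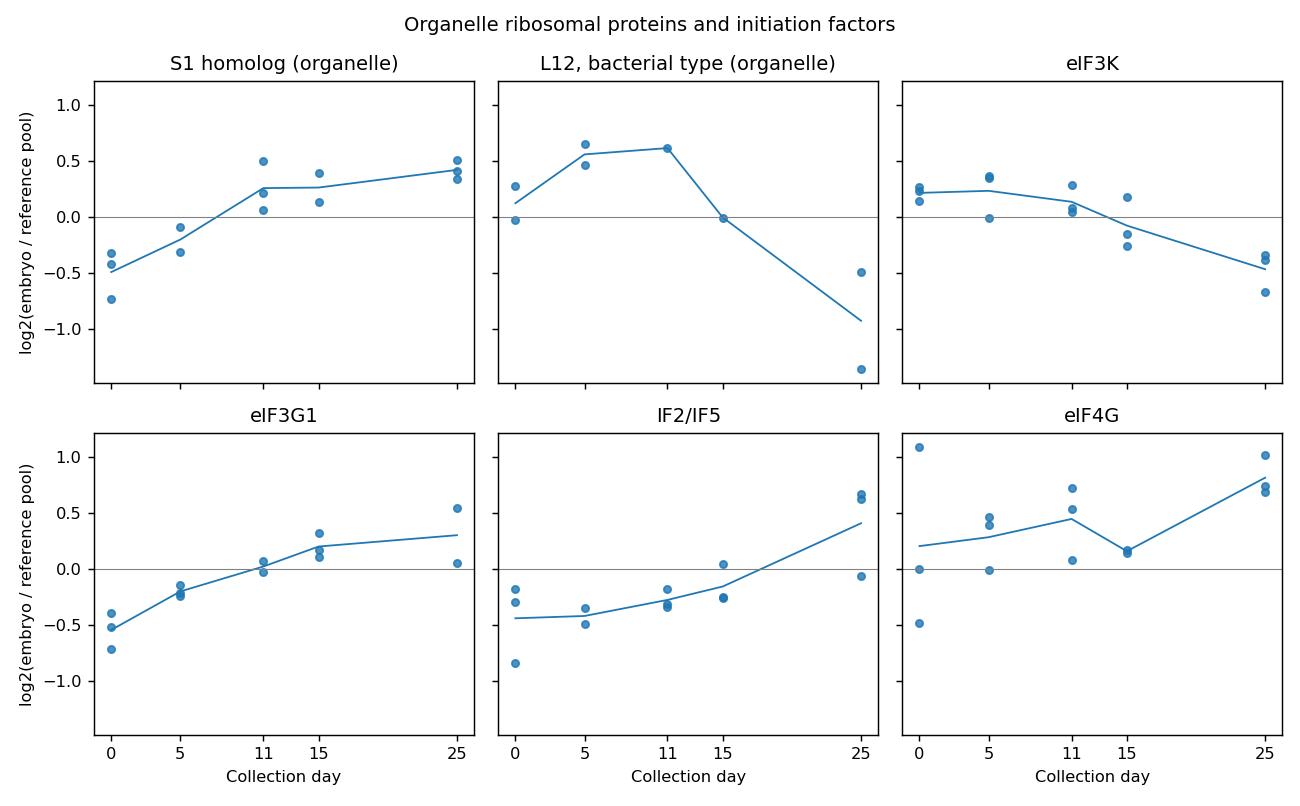
Log2 ratio of embryo over reference pool in each sample with a kept value (points) and their day mean (line) against collection day, for 2 organelle ribosomal proteins and 4 initiation factors. The S1 homolog, eIF3G1 and IF2/IF5 end above their Day0 samples, eIF3K and bacterial-type L12 end below theirs, and eIF4G spreads widely on Day0.

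Among elongation factors, 5 of 6 spots were tested. On Day25 against Day0 3 were lower and 2 did not pass, with a median of -0.91, where 23.6% of all tested spots were lower. eIF5A (AT1G13950), which helps ribosomes past residues that stall them, had both the widest and the narrowest range. Spot 12.4.21.6 read 1.52, 1.30 and 1.45 on Day0, 0.86, 0.54 and 0.84 on Day5, 0.24 and 0.41 on Day11, -0.06 and -0.43 on Day15 and -0.56, -0.50 and -0.43 on Day25. Every day lay below the day before it without overlap except for Day25 against Day15, and Day25 minus Day0 was -1.92 ± 0.14, 3.79-fold lower. Spot 12.1.19.5 read 0.00 and 0.44 on Day0, 0.31 and 0.38 on Day5, -0.35 and 0.04 on Day11, -0.20 and -0.04 on Day15 and 0.29, 0.01 and -0.28 on Day25. Its days overlapped, and the difference of -0.21 ± 0.20 did not pass. The spots map to different pine unigenes.

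EF1A (AT5G60390) delivers charged tRNAs to the ribosome. At spot 5.3.3.12 it read 1.03, 0.44 and 0.45 on Day0, -0.14, -0.23 and -0.40 on Day5, -0.29 and -0.40 on Day11, -0.36, -0.59 and -0.33 on Day15 and -0.27 and -0.66 on Day25. All Day0 samples were above 0 and all later samples below it. Day5 minus Day0 was -0.90 ± 0.17, and Day25 minus Day0 was -1.10 ± 0.19. At spot 6.1.19.14 it read 1.31, 0.30 and 0.80 on Day0, 0.75, 0.71 and 0.38 on Day5, 1.18, 1.23 and 0.82 on Day11, 0.49 and 0.93 on Day15 and 0.67, -0.27 and 0.16 on Day25. Its day mean was highest on Day11, Day0 and Day25 samples overlapped, and the difference of -0.62 ± 0.26 did not pass.

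The gamma chain of EF1B (AT1G57720), part of the exchange factor that recycles EF1A, gave like values at its spots. Spot 2.1.21.6 read 1.34, 0.41 and 0.71 on Day0, 0.07 and 0.70 on Day5, 0.38 and 0.77 on Day11, 0.77 and 0.10 on Day15 and 0.74, -0.38 and -0.62 on Day25. Spot 1.2.4.15 was not tested and read 1.82, 0.48 and 0.70 on Day0, 0.00, 0.83 and 0.74 on Day5, 0.57 on Day11, 0.69 and -0.08 on Day15 and -0.49 and -0.57 on Day25. At both, Day0 replicate 1 was the highest sample. Day25 replicate 1 at spot 2.1.21.6 overlapped Day0, and the difference there was -0.91 ± 0.35. It passed at an adjusted p of 0.0465 (limma) and did not with the replicate number as a block (adjusted p = 0.0527). The other spot had -1.08 ± 0.32 without the filter.

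All 3 tested spots for tRNA synthetases were lower on Day25 than on Day0, as were 23.6% of all tested spots. Valyl-tRNA synthetase (AT1G14610) is also TWIN 2, named for a mutation that gives twin embryos in *A. thaliana* seeds. Spot 10.3.19.1 read 0.89, 0.79 and 0.46 on Day0, 0.39, 0.46 and 0.79 on Day5, 0.41, -0.18 and 0.10 on Day11, -0.47, 0.17 and -0.28 on Day15 and -0.93, -0.79 and -1.07 on Day25. Day25 lay below all other samples, by -1.64 ± 0.19 against Day0, 3.12-fold lower. Spot 1.1.21.8 read 0.49, 0.29 and 0.34 on Day0, 0.17 and 0.24 on Day5, 0.24, 0.05 and 0.05 on Day11, 0.09 and -0.05 on Day15 and -0.05 and 0.08 on Day25. It also ended below Day0 without overlap, but by -0.36 ± 0.13.

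Prolyl-tRNA synthetase (1.1.9.11) read 0.29, 0.21 and 0.05 on Day0, 0.59, 0.41 and 0.21 on Day5, 0.95, 0.36 and 0.49 on Day11, 0.39 and 0.34 on Day15 and -0.75 and -0.85 on Day25. It was highest on Day11 and lowest on Day25, with Day25 minus Day0 of -0.99 ± 0.18 and Day25 minus Day15 of -1.16 ± 0.19, where 3.5% of all tested spots were lower. Of the spots that were not tested, seryl-tRNA synthetase (AT5G27470) had -1.64 ± 0.18 and phenylalanyl-tRNA synthetase (AT4G39280) -0.87 ± 0.17 without the filter. Glutamyl-tRNA synthetase (AT5G26710) had -0.06 ± 0.20.

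**Figure D5:**
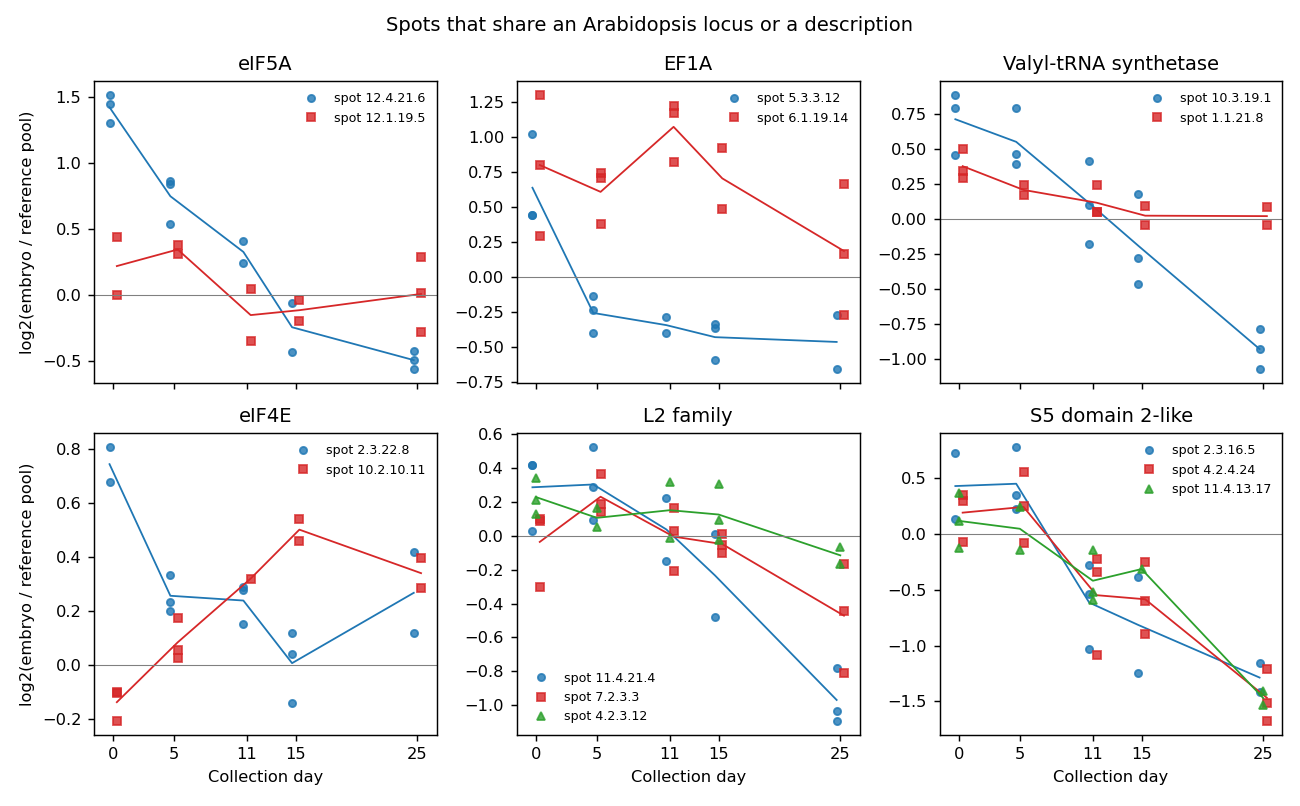
Log2 ratio of embryo over reference pool in each sample with a kept value (points) and the day mean (lines) against collection day, for spots that share an *A. thaliana* locus or, for eIF4E, a description. All kept values of the 3 spots for S5 domain 2-like lie below 0 from Day11 on, and the spots for eIF5A, EF1A, valyl-tRNA synthetase and eIF4E separate on at least 1 day.

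Spots of 1 locus followed each other at some loci and not at others. In all, 12 loci had several member spots, 10 of them 2 and 2 of them 3. Differences between such spots were not tested, and the files at hand do not say whether they mark gene copies, parts of 1 transcript or cross-hybridization.

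The last 3 spots matched by wording alone. Rubber elongation factor names a small lipid particle protein, not a translation factor. The spot for it (AT3G05500, 5.1.22.19) read 0.46, 0.28 and 0.46 on Day0, -0.30, -0.58 and -0.34 on Day5, -0.27, -0.37 and -0.45 on Day11, -0.66, -1.08 and -0.11 on Day15 and 0.57, 0.74 and 0.25 on Day25. It was low on Day5, Day11 and Day15 and high at both ends. The other spot (3.4.21.2), whose cDNA ends matched cyclophilin 20-2 and rubber elongation factor, read -1.80, -1.44 and -0.85 on Day0, -0.84, -1.29 and -1.01 on Day5, -1.03, -0.87 and -0.88 on Day11, -0.52, -1.18 and -0.51 on Day15 and 0.59, 1.81 and 1.60 on Day25. Its Day25 samples were above all others, by 2.70 ± 0.29 against Day0. Both of these spots were higher on Day25 than on Day15, as were 5.53% of all tested spots. The protein with a synthetase-associated domain (AT1G44835) was not tested and had -0.45 ± 0.18 without the filter.

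Other genes around the ribosome were few in the same lists, with 9 spots. They comprised genes of ribosome assembly and chain termination, a receptor of activated protein kinase C (AT1G18080) and a CTC-interacting protein (AT1G32790), the last 2 not tested. Of the 9 spots, 5 were tested. On Day25 against Day0, 3 were lower, 1 was higher and 1 did not pass, where 23.6% of all tested spots were lower and 23.6% higher. NOP56 (AT1G56110, spot 2.4.10.18), which guides chemical marks onto rRNA, differed by -1.03, an rRNA primary transcript binding protein by -0.77 and a 23S rRNA methyltransferase by -1.78. Release factor eRF1-3 (AT3G26618), which ends translation at stop codons, differed by 0.81. A ribosome production factor (AT4G01560) had -0.03, not passed. Of 14 tested spots whose description names a storage or late embryogenesis abundant protein, 8 were higher on Day25 and 6 lower. They ranged from -2.99 to 2.96, and the same shares over all tested spots apply. Their part in the results on the ribosome was not tested.

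Samples also deviated within a day. The spread within a day entered the study's time course list, so these deviations are a description too. The part of that list used here held 15 members. On Day5 the median over cytosolic ribosomal spots of a sample's value minus the mean of the other samples of that day was -0.31 in replicate 1, with 13 of 15 spots below the others, -0.04 in replicate 2 and 0.36 in replicate 3, with 3 of 14 below. On Day11 it was -0.27, 0.05 and 0.34. On the other days it lay between -0.15 and 0.20. This median was above 0 in replicate 3 on all 5 days and below 0 in replicate 1 on 4 of them. The same median over all tested spots is held near 0 by the normalization and was not used for comparison.

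Elongation factors spread most on Day0. Replicate 1 deviated by 0.67, with none of 4 spots below the other samples, and replicate 2 by -0.44, with 5 of 5 below. Cytosolic ribosomal spots deviated by -0.15 in the same replicate 1. The mean correlation of deviations between 2 cytosolic spots over the samples was weak at 0.12, and some of these pairs were spots of 1 locus. Over the 6331 spots with values in all samples it was 0.004, where the normalization holds it near 0, so it is no yardstick. Single spots ranged more widely. With the median of the other cytosolic spots, the S5 domain 2-like spots correlated at 0.81 (12 samples) and 0.77 (15 samples), L11 at 0.76 (14 samples), L28-1 at -0.59 (14 samples) and prolyl-tRNA synthetase at -0.80 (13 samples). The S5 domain 2-like spots share a locus, so their values do not come from separate genes. These correlations share arrays, amplification and normalization and are given without a test.

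The lists themselves had thresholds. Among the 14 members listed for a 2-fold step between consecutive days, the smallest largest step recomputed here was 0.75 on the log2 scale (L23, 3.1.4.20), then 0.88 (L2, 6.3.21.10) and 0.90 (L26-1), where 2-fold is 1. Outside the part of that list used here the largest were 1.07 (S5 domain 2-like, 2.3.16.5), 0.91 (L28-1) and 0.90 (EF1A, 5.3.3.12). These spots may still stand in the rest of that list. Of the 32 tested members, 20 passed the quadratic time course of the study's methods, as did 28% of all tested spots. Tested members from the part of the study's time course list used here (1631 spots) had an R-squared of at least 0.74. Outside that part the highest was 0.92, and such members may still stand in the rest of the list.

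In simulated data with the spread of these samples, 94% of 50 spots changed by 1 log2 unit between Day25 and the other days were recovered. Of 50 spots changed by 0.5, 12% were recovered. Only 50 of 14513 spots were changed at each size, whereas in the data 23.6% were lower and 23.6% higher on Day25 than on Day0. The adjusted threshold is stricter where so few spots change, so these shares do not carry over to the members. How often a difference near 0.5 misses the threshold in the data was not tested.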

How the data were processed

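Two-colour arrays of 15 embryo samples, 30 arrays in all, were analysed. The authors deposited spot and background intensities of both channels with quality marks, not normalized, and their own log2 ratios, which the authors made with print-tip loess and cyclic loess. Here log2 ratios were computed from the intensities without background correction. Loess was run in each of 48 print tips (span 0.3, iterated 4 times), then cyclic loess (3 iterations). The tools were limma 3.58.1 and statmod 1.5.0 under R 4.3.3. The ratios correlated with the authors' log2 ratios at 0.993 to 0.999 per array. Spots with a deposited quality mark of 0 were left out and those with a mark of 1 kept (41.0% to 70.5% per array), and technical replicates were averaged per sample. A spot was tested when at least 2 samples had values on every day (14513 of 26496). Day means were compared with limma in 1 fit of all samples, with Benjamini-Hochberg adjustment over the 14513 spots and a threshold of 0.05, with no pseudocount. The fit was tested on simulated data. The time course fitted day and its square (R-squared of at least 0.7 and a false discovery rate under 0.01).

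Members were found by search words in the study's lists of changed spots, of which only part was used here, and sorted into roles by their descriptions. Members and gene lists were chosen with earlier results of these data known. Values in every sample are given for the tested members with the widest and narrowest range of day means in each role, organelle members, members that passed against the median of their role, and genes with several spots. A few other members are given in full because their values stood out. The study's fold changes and p-values were not used, and neither was an annotation of all spots. The depth of an array has no count, so the number of arrays limits the precision. Alternatives covered background correction (normexp, offset 50), loess, scaling, filters (the 0.25 quantile of brightness), the authors' ratios, technical correlation, a replicate block and each sample left out.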

Additional observations from a re-analysis of the deposited data

How the results depend on the processing

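Of 32 tested members, 21 were lower and 5 higher on Day25 than on Day0, and 7 were lower on Day25 than on Day15. The shares over all tested spots were 23.6% lower and 23.6% higher than on Day0, and 3.5% lower than on Day15. The median cytosolic difference was -0.97 between Day25 and Day0, and no member called between Day25 and Day0 or between Day25 and Day15 reversed under any alternative run. Without the filter on quality marks 44 of 57 were lower than on Day0 and 15 lower than on Day15, and the cytosolic median was -1.19. Of all spots, 25.4% were then lower than on Day0. Where values were required in all samples, 9 members remained tested, with 7 lower and 1 higher than on Day0 and 3 lower than on Day15. There 23.4% of all tested spots were lower and 24.4% higher than on Day0. The count of members lower than on Day15 was 3 with 1 loess per array and 2 with scaled log2 ratios. The share of all spots lower than on Day15 was not computed for these alternatives.

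With each sample left out in turn, 21 to 29 members could be tested. In these runs 20.5% to 23.9% of all tested spots were lower and 20.7% to 24% higher on Day25 than on Day0. The share lower on Day25 than on Day15 was not computed. The members lower on Day25 than on Day0 numbered 13 to 20, with 13 when Day15 replicate 2 or Day25 replicate 2 was left out. Those higher numbered 3 to 6, with 3 without Day5 replicate 1, Day5 replicate 3 or Day15 replicate 3. Those lower on Day25 than on Day15 numbered 1 to 7, with 1 without Day25 replicate 2, 2 without Day15 replicate 3 and 3 without Day15 replicate 1, Day15 replicate 2 or Day25 replicate 3. The median cytosolic difference between Day25 and Day0 ranged from -1.12 to -0.74 (lowest in size without Day15 replicate 2), that between Day25 and Day15 from -0.57 to -0.31, and that between Day5 and Day0 from -0.12 to 0.10, on either side of 0. Calls were also lost among members tested with and without a sample. Of such calls between Day25 and Day15, in either direction, 4 of 7 were lost without Day25 replicate 2, 3 of 7 without Day15 replicate 3 and 3 of 8 without Day25 replicate 3. The cause was not tested.

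The labels do not say that a replicate number marks a shared batch. Deviations of samples with the same number correlated above 0.1 in 14 of 30 pairs of days and numbers, from -0.38 to 0.49, and 14 of 30 correlated best with their own number. All 3 pairs were above 0.1 between Day25 and Day0 and between Day11 and Day0, and not between any other days, so pairing over all days was not settled. With a replicate block 21 members were lower and 5 higher on Day25 than on Day0, against 23.3% and 23.5% of all tested spots. Of the 26 calls, 25 were kept, with EF1B gamma lost and SA gained. In that run 8 members were lower on Day25 than on Day15 (L23 gained). The cytosolic medians were -0.99 between Day25 and Day0, -0.39 between Day25 and Day15 and -0.07 between Day5 and Day0. The main limits are that members came from lists made from these samples (changed spots, or profiles compared with *A. thaliana*), that 25 of 57 were not tested, and that the arrays hold 3 samples a day.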
